A study of Homo sapiens with 12 samples.

Results

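The 10 genes POLE, POLD1, POLA1, PRIM2, NTHL1, MUTYH, ERCC2, RTEL1, BRIP1 and DNA2 encode enzymes of DNA replication and repair that carry an iron-sulfur (Fe-S) cluster. They were taken by gene symbol from the 58735 genes of the count table, and all 10 were among the 16891 genes with enough counts to be tested. RNA-seq was performed in ES2 human ovarian carcinoma cells of the FDX2-iKO type, in which the endogenous FDX2 gene has been knocked out by genome editing and an editing-resistant, HA-tagged FDX2 is expressed from a TetON promoter as long as doxycycline (Doxy) is present. All 12 libraries therefore lack endogenous FDX2 function, and withdrawal of Doxy removes the exogenous protein. No line without the construct was among the libraries, so effects of Doxy itself and of FDX2 cannot be told apart. FDX2 loss stands below for the comparison without against with Doxy. The 4 conditions were 20% O2 with Doxy, 20% O2 without Doxy, 3% O2 with Doxy and 3% O2 without Doxy, with 3 libraries each. The cultures at 20% O2 were kept for 6 days, whereas those at 3% O2 spent 4 days at 20% and then 3 days at 3%, so total culture time and oxygen cannot be told apart between them. The iKO lines are clones. The study's methods name clone #1 as the default, and the labels of these libraries name none.

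Fe-S clusters are built in mitochondria, where the ferredoxin FDX2 supplies electrons to the assembly complex. A cytosolic Fe-S assembly (CIA) machinery then places clusters into apoproteins of the cytosol and nucleus, including polymerases, primase, DNA glycosylases and helicases. Many genes for replication enzymes are also transcribed in step with the cell cycle, being higher in cells that pass through S phase. The libraries measured mRNA, and neither the proteins nor their clusters were measured in these values.

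The libraries held 24958386 to 34313637 counts in total. FDX2 itself had 2 to 13 counts per library, at 5, 2 and 6 with Doxy and 9, 13 and 4 without at 20% O2, and at 2, 4 and 12 with Doxy and 7, 7 and 5 without at 3% O2. It was too low to be tested, and the labels could not be checked on it. Exons of AC011511.1 and AC011511.4 cover 70.9% of the exonic bases of FDX2 on the same strand, so its counts are uncertain. Of the carcinoma markers, KRT8, KRT18, PAX8 and ARID1A were present in every library, while KRT19, EPCAM and CDH1 had at most 3 counts and MUC16 had 0. The blood cell markers PTPRC, CD68 and CD3E had at most 7 counts in any library. CDH5, an endothelial cadherin, was at 22.1 to 51.4 CPM (counts scaled to the library's normalized total) while PECAM1 had at most 5 counts. The sum of both endothelial markers was 22.1 to 28.4 CPM with Doxy and 26.2 to 27.0 CPM without at 20% O2, and 28.7 to 36.6 CPM with Doxy and 39.9 to 51.6 CPM without at 3% O2. Libraries differed in how strongly GC-rich genes were represented. The median centred log2 CPM of the 2783 GC-richest genes (GC content of at least 55.2%) minus that of the 2783 GC-poorest (at most 41.5%) was 0.37, −0.12 and −0.29 in replicates 1 to 3 with Doxy at 20% O2. It lay between −0.32 and −0.18 without Doxy at 20% O2, at −0.14, −0.10 and 0.43 with Doxy at 3% O2, and at 0.04, 0.39 and 0.12 without Doxy at 3% O2. The transcripts of POLE, MUTYH, ERCC2, RTEL1, NTHL1 and POLD1 have a GC content of 55.6% to 65.0% and fall among the GC-richest genes. Those of BRIP1, DNA2 and PRIM2 lie at 37.5%, 37.6% and 41.6%, and that of POLA1 at 42.9%. The comparisons are therefore given with and without a correction of each library for GC content.

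The regulatory sequence of the members was examined first, since several of them moved together. RefSeq promoter windows of 300 bases (250 before and 50 after the start, GRCh38.p14) were found for 9 of the 10 genes, 14 windows in all. They were searched on both strands for the letters TTGGCGC or TTCCCGC or TTCGCGC, which resemble binding sites of the E2F factors that drive S-phase transcription. POLE, POLA1, MUTYH, RTEL1 and BRIP1 held at least 1 of these words, 5 of the 14 windows, against 11.03% of all 35116 windows. The CCAAT letters, the core of NF-Y sites, occurred in 6 of the 14 windows (34.6% of all windows), the TTTGAA letters found in cell cycle homology regions in 2 (15.2% of all windows), and TATAAA in 0 (11.5% of all windows). The last 150 bases before the start are printed for POLE and POLA1, in whose windows E2F words recurred, and for POLD1 and NTHL1, which fell most after FDX2 loss and in which none of the words was found. Capitals mark the E2F words and CCAAT on either strand, which overlap in POLE. A match is a description of letters, and no match says only that these letters are not in the window.
POLE, chr12:132687343-132687492, minus strand: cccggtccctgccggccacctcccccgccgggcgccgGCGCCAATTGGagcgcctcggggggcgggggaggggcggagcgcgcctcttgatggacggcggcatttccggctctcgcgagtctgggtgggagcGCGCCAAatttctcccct
POLA1, chrX:24693768-24693917, plus strand: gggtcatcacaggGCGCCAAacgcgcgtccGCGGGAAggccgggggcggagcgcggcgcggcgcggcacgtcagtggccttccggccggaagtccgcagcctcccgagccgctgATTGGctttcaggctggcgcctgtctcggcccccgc
POLD1, chr19:50384173-50384322, plus strand: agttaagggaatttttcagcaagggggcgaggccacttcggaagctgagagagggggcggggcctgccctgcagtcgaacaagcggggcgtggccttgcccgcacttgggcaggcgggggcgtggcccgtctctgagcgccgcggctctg
NTHL1, chr16:2047835-2047984, minus strand: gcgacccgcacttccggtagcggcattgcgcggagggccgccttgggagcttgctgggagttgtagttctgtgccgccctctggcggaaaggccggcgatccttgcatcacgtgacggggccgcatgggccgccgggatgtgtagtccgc

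After FDX2 loss at 20% O2, the mRNA of 7 of the 10 enzymes was lower and that of 0 higher. NTHL1, POLD1, POLE, RTEL1, DNA2, POLA1 and ERCC2 fell, while BRIP1, MUTYH and PRIM2 did not pass the threshold. Of all genes tested, 17.7% were called lower and 17.6% higher in this comparison (edgeR's quasi-likelihood test, Benjamini-Hochberg adjusted p under 0.05). The median log2 fold change of the 10 genes was −0.41, against 0.01 for all genes. In 6 of the 10 genes all libraries without Doxy lay below all those with Doxy, a gap that 25.8% of all genes showed. In bulk samples, fewer cells of a type and less RNA per cell cannot be told apart.

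Among the replicative polymerases, POLE, the catalytic subunit of polymerase epsilon that synthesizes the leading strand, had 170, 142 and 125 CPM with Doxy and 92.2, 88.6 and 87.2 CPM without. All libraries with Doxy lay above all those without, and the fall amounted to −0.71 on the log2 scale (SE 0.13, edgeR quasi-likelihood adjusted p = 0.00185). POLD1, the catalytic subunit of polymerase delta on the lagging strand, had 91.1, 63.6 and 54.3 CPM with Doxy and 41.9, 39.96 and 40.04 CPM without. Replicate 1 with Doxy was the highest, but the groups did not overlap (log2 fold change −0.78, SE 0.20, edgeR quasi-likelihood adjusted p = 0.012). POLA1, the catalytic subunit of polymerase alpha that extends the primers, had 49.1, 55.7 and 53.6 CPM with Doxy and 41.2, 39.1 and 40.8 CPM without. Its fall was smaller but the replicates were tight (log2 fold change −0.39, SE 0.06, edgeR quasi-likelihood adjusted p = 0.000691). PRIM2, the large subunit of primase that works in the same complex as POLA1, had 23.3, 26.8 and 29.7 CPM with Doxy and 28.2, 26.9 and 25.8 CPM without. These ranges overlapped, and the 95% interval of its log2 fold change (0.02) ran from −0.16 to 0.20.

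**Figure D1:**
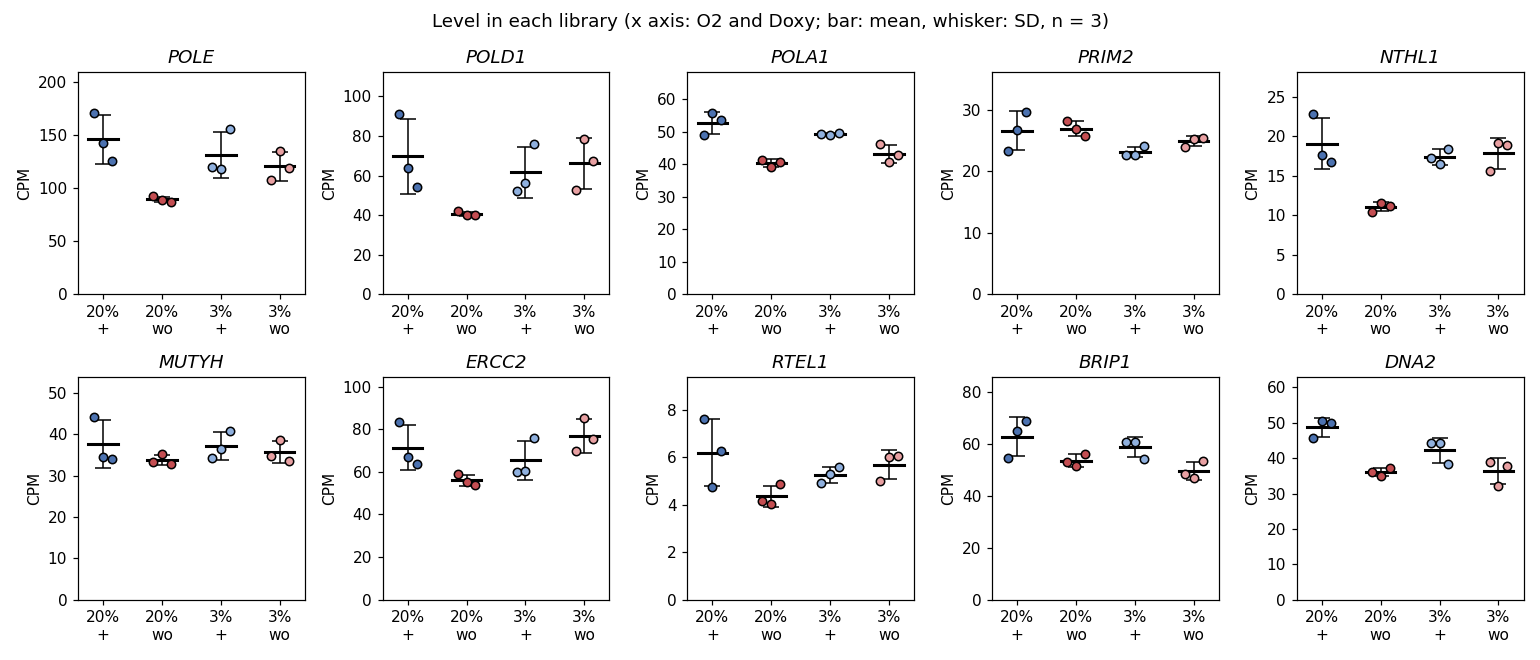
CPM of each of the 10 genes (y axis, starting at 0) in the 4 conditions (x axis, O2 and Doxy), with points for the 3 libraries, a bar for the mean and whiskers for the SD. Without Doxy at 20% O2 the 3 libraries of POLE, POLD1, POLA1, NTHL1, ERCC2 and DNA2 sit below all libraries with Doxy at 20% O2.

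The 2 DNA glycosylases differed in their values. NTHL1, which removes oxidized pyrimidines in base excision repair, had 22.9, 17.6 and 16.8 CPM with Doxy and 10.5, 11.6 and 11.2 CPM without. It showed the most negative log2 fold change of the 10 (−0.78, SE 0.12, edgeR quasi-likelihood adjusted p = 0.000474), with no overlap between the conditions. MUTYH, which removes adenine mispaired with 8-oxoguanine, had 44.2, 34.4 and 34.1 CPM with Doxy and 33.3, 35.1 and 32.8 CPM without. Its ranges overlapped, and the 95% interval of the log2 fold change (−0.15) ran from −0.38 to 0.08. Exons of TSC2 cover 16.5% of the exonic bases of NTHL1 and exons of TOE1 cover 14.1% of those of MUTYH, both from the opposite strand, and the strand setting of the counting is not given in the sources used here.

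Among the helicases and nucleases, DNA2, a nuclease-helicase that trims flaps and resects DNA ends, had 45.6, 50.6 and 50.02 CPM with Doxy and 35.98, 35.1 and 37.2 CPM without. Every library with Doxy was higher (log2 fold change −0.43, SE 0.08, edgeR quasi-likelihood adjusted p = 0.00222). ERCC2 (XPD), the helicase of the transcription and repair factor TFIIH, had 83.5, 67.2 and 63.5 CPM with Doxy and 58.8, 55.4 and 53.8 CPM without. The groups did not overlap, although the gap was small (log2 fold change −0.35, SE 0.12, edgeR quasi-likelihood adjusted p = 0.0441). BRIP1 (FANCJ), a helicase of the Fanconi anaemia pathway, had 54.5, 64.8 and 68.9 CPM with Doxy and 53.0, 51.2 and 56.0 CPM without. Its lowest library with Doxy lay within the range without Doxy, and it was not called (log2 fold change −0.23, SE 0.09, edgeR quasi-likelihood adjusted p = 0.0668). RTEL1, a helicase that unwinds telomeric and other DNA structures, was the least abundant, with 7.61, 4.75 and 6.26 CPM with Doxy and 4.17, 4.02 and 4.88 CPM without. It was called lower although the ranges overlapped (log2 fold change −0.51, SE 0.16, edgeR quasi-likelihood adjusted p = 0.0292). The readthrough gene RTEL1-TNFRSF6B covers 70.2% of the exonic bases of RTEL1 on the same strand, so the RTEL1 counts are uncertain.

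The calls of ERCC2 and RTEL1 were close to the threshold and were lost when any of several single libraries was left out. Without replicate 1 with Doxy at 20% O2, in which GC-rich genes were high, ERCC2 stood at −0.24 (edgeR quasi-likelihood adjusted p = 0.122) and RTEL1 at −0.35 (adjusted p = 0.0995), and BRIP1 became called at −0.34 (adjusted p = 0.00934). ERCC2 also lost its call without replicate 2 with Doxy (−0.40) or without replicate 1, 2 or 3 without Doxy (−0.38, −0.36 and −0.34). RTEL1 also lost its call without replicate 3 with Doxy (−0.51) or without replicate 1 or 2 without Doxy (−0.48 and −0.47). With the GC correction 7 of the 10 genes were again lower, with BRIP1 in place of RTEL1, against 24.3% of all genes. POLE was then at −0.63, NTHL1 at −0.55, DNA2 at −0.53, POLD1 at −0.51, POLA1 at −0.45, BRIP1 at −0.33 and ERCC2 at −0.20, and RTEL1 was not called at −0.31. The corrected values of the GC-rich POLD1 and NTHL1 were thus closer to 0, and those of DNA2, POLA1 and BRIP1, with a GC content of at most 42.9%, farther from it. Of the 2783 GC-richest genes, 27.5% were called lower in the uncorrected comparison, and of the 2783 GC-poorest 18.8%.

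The partners and pathway neighbours of the 10 enzymes were examined in lists taken from general knowledge. Of the 8 other subunits of the polymerases and primase, 3 were lower (POLE2 at −0.45, POLA2 at −0.36 and POLD3 at −0.22) and 2 higher (POLD4 at 0.71 and POLE4 at 0.29), with a median of −0.13. PRIM1, the catalytic primase subunit, was not called at −0.13, like its partner PRIM2. Of the 9 partners of ERCC2 in TFIIH, ERCC3, the other TFIIH helicase, was lower (−0.38), whereas GTF2H1 (0.48), GTF2H5 (0.34), CDK7 and GTF2H3 were higher. Both other Fe-S enzymes that could be tested fell, namely the helicase DDX11 (−0.45) and REV3L, the catalytic subunit of polymerase zeta (−0.30). EXO5, an Fe-S nuclease, was too low to be tested. Of 15 base excision repair genes that encode no Fe-S enzyme, 6 were lower and 0 higher, with the most negative values for the uracil glycosylase UNG (−0.96), the strand break sensor PARP1 (−0.69) and the ligase LIG3 (−0.57). Of 11 helicases and nucleases without a cluster, 5 were lower and 0 higher, led by PIF1 (−1.20), RECQL4 (−0.84) and the flap endonuclease FEN1 (−0.84). Of the 9 CIA factors, 4 were lower and 0 higher, with MMS19, the adaptor that hands clusters to many of these DNA enzymes, at −0.34, CIAO2A at −0.33 and NUBP1 at −0.23.

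**Figure D2:**
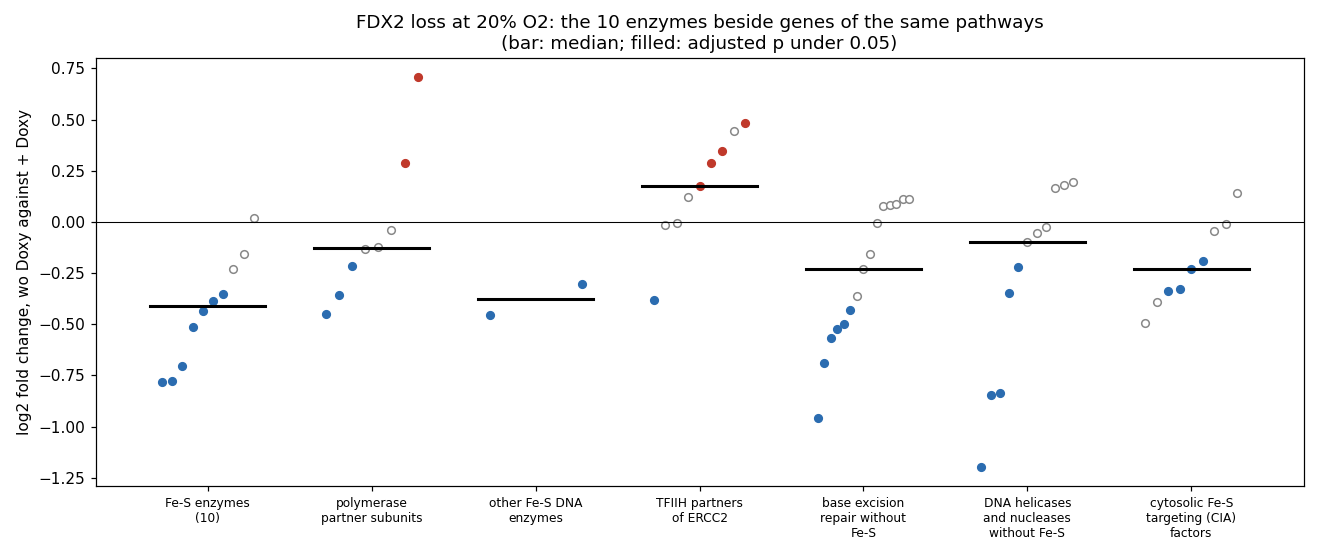
Log2 fold change without against with Doxy at 20% O2 (y axis) of the 10 Fe-S enzymes and of the tested genes of 6 lists of partners and pathway neighbours (x axis), with a bar for each median and filled points for an adjusted p under 0.05. The median of the 10 enzymes lies at −0.41 and that of the TFIIH partners of ERCC2 at 0.17.

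Proliferation genes moved in the same direction as the members. After FDX2 loss at 20% O2, 35 of 41 tested S-phase genes (Seurat's list without the members) were lower and 0 higher, with a median log2 fold change of −0.40, while for G2/M genes the count was 52 lower of 54 and 0 higher, with a median of −0.73. MKI67, a marker of cycling cells, was at −1.37, the replication clamp PCNA at −0.88 and the replicative helicase subunit MCM2 at −0.56. After FDX2 loss at 3% O2, 20 of 41 S-phase genes (median −0.25) and 25 of 54 G2/M genes (median −0.25) were lower and 0 higher. The summed level of the S-phase genes was 5098 to 5195 CPM with Doxy and 3626 to 3657 CPM without at 20% O2. At 3% O2 it was 4775 to 4839 CPM with Doxy and 4000 to 4118 CPM without. The summed level of the 10 enzymes was 502 to 592 CPM with Doxy and 387 to 399 CPM without at 20% O2, and 465 to 539 CPM with Doxy and 443 to 507 CPM without at 3% O2. Thus the S-phase sums did not overlap between the Doxy conditions at either oxygen level, while those of the 10 enzymes did not overlap at 20% O2 and overlapped at 3% O2. These sums were not corrected for GC content. With Doxy at 20% O2 the enzymes' sum was highest in replicate 1 (592 CPM). At 3% O2 it was highest in replicate 3 with Doxy (539 CPM) and replicate 2 without (507 CPM). GC-rich genes were highest in these same libraries, and the part of GC content in the overlap was not tested. The part of the proliferation genes in the members' values was not tested.

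**Figure D3:**
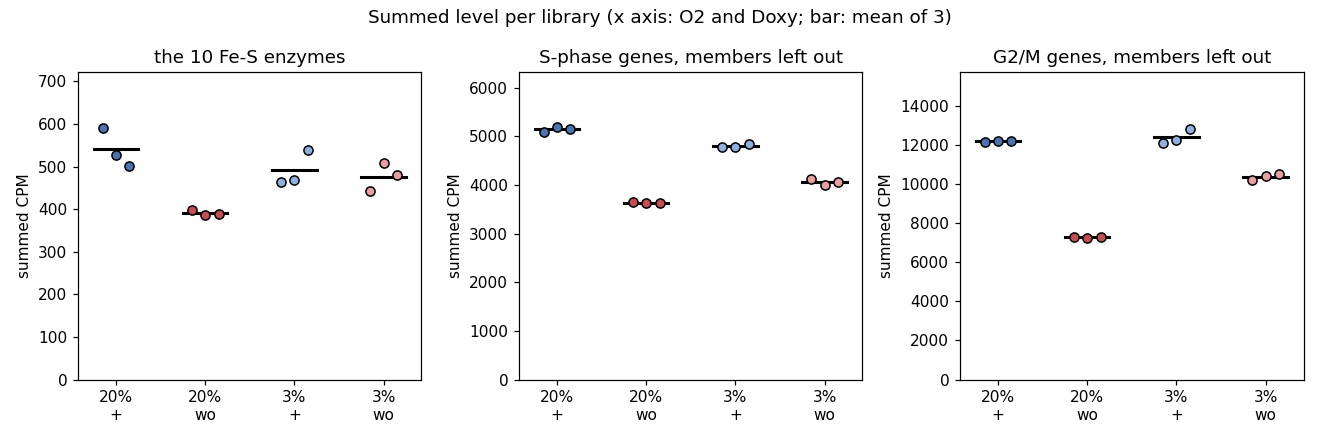
Summed CPM per library (y axis, starting at 0) of the 10 Fe-S enzymes, of the S-phase genes and of the G2/M genes (members left out of both lists) in the 4 conditions (x axis), with points for libraries and a bar for the mean. The S-phase sums without Doxy are 3626 to 3657 at 20% O2 and 4000 to 4118 at 3% O2, below all libraries with Doxy.

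At 3% O2, none of the 10 enzymes was called after FDX2 loss, against 3.11% of all genes called lower and 4.20% called higher (edgeR's quasi-likelihood test). Their median log2 fold change was −0.01, against 0.04 for all genes. It was −0.10 with the GC correction, and 0.05 without replicate 3 with Doxy and 0.04 without replicate 1 without Doxy. At an unadjusted p under 0.05 there were 3 genes, POLA1, BRIP1 and DNA2, a count for which no share of all genes is given. DESeq2's Wald test called 1 of them lower, POLA1, against 1139 of 14366 genes. POLA1 had 49.2, 48.9 and 49.7 CPM with Doxy and 46.2, 40.6 and 42.8 CPM without, ranges that did not overlap (log2 fold change −0.19, SE 0.06, edgeR quasi-likelihood adjusted p = 0.0928). BRIP1 had 60.7, 60.7 and 54.1 CPM with Doxy and 48.4, 46.6 and 53.5 CPM without, again with no overlap (log2 fold change −0.24, SE 0.09, edgeR quasi-likelihood adjusted p = 0.137). DNA2 had 44.4, 44.2 and 38.2 CPM with Doxy and 39.0, 32.1 and 37.8 CPM without, and replicate 3 with Doxy lay within the range without (log2 fold change −0.22, SE 0.08, edgeR quasi-likelihood adjusted p = 0.148). A gap downward between the replicates was seen in 11.2% of all genes.

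The genes with the largest falls at 20% O2 had overlapping levels at 3% O2. NTHL1 had 17.3, 16.5 and 18.4 CPM with Doxy and 15.6, 19.1 and 18.9 CPM without, and the 95% interval of its log2 fold change (0.04) ran from −0.22 to 0.30. POLD1 had 52.2, 56.5 and 76.2 CPM with Doxy and 52.8, 78.7 and 67.2 CPM without. Its replicates spread widely in both conditions, and the interval of the log2 fold change (0.10) ran from −0.34 to 0.55. POLE had 119, 118 and 156 CPM with Doxy and 108, 135 and 119 CPM without, with an interval from −0.41 to 0.17 around −0.12. ERCC2 had the largest positive log2 fold change of the 10, with 59.9, 60.5 and 76.2 CPM with Doxy and 69.8, 85.5 and 75.3 CPM without. Replicate 3 with Doxy overlapped the libraries without Doxy (log2 fold change 0.23, 95% interval −0.04 to 0.50). PRIM2, MUTYH and RTEL1 had log2 fold changes of 0.11, −0.06 and 0.11. With the GC correction 1 gene was called lower, BRIP1 (−0.19, adjusted p = 0.0192), and 1 higher, ERCC2 (0.17, adjusted p = 0.016), against 6.10% and 8.45% of all genes. With the 3 libraries in which GC-rich genes were highest left out, BRIP1 and DNA2 were called lower and ERCC2 higher, against 7.72% and 7.48% of all genes.

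The difference between the responses to FDX2 loss at 3% and 20% O2 was tested directly, as the log2 fold change at 3% O2 minus that at 20% O2. Only NTHL1 passed, at 0.82 (SE 0.17, 95% interval 0.45 to 1.19, edgeR quasi-likelihood adjusted p = 0.0152), against 3.21% of all genes called in this direction and 4.08% in the other. POLD1 (0.88), RTEL1 (0.62), POLE (0.58) and ERCC2 (0.58) had differences of similar size that were not called, with edgeR quasi-likelihood adjusted p values of 0.0903, 0.128, 0.087 and 0.0682. DNA2 (0.21) and POLA1 (0.20) were not called either, with 95% intervals from −0.05 to 0.48 and from 0.0033 to 0.39. PRIM2, MUTYH and BRIP1 had differences of 0.09, 0.09 and −0.01, with 95% intervals from −0.17 to 0.34, from −0.23 to 0.42 and from −0.29 to 0.27. The median of the 10 was 0.40, against 0.05 for all genes. In the same test, 13 of 41 S-phase genes (median 0.21) and 36 of 54 G2/M genes (median 0.50) were called higher and 0 lower.

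The number of calls in this comparison varied between settings. With the GC correction, 6 of the 10 genes were called with a positive difference, namely POLD1 (0.49), NTHL1 (0.48), POLE (0.48), DNA2 (0.37), ERCC2 (0.37) and POLA1 (0.30), against 10.5% of all genes. Across all genes the correction raised the lower calls from 689 to 938 and the higher calls from 542 to 1780, so that the share of lower calls went from 56.0% to 34.5%. With the 3 libraries in which GC-rich genes were highest left out, the same 6 genes were called, against 9.05% of all genes, with NTHL1 at 0.66, POLD1 at 0.67 and POLE at 0.50. Leaving out replicate 1 with Doxy at 20% O2 alone, or replicate 2 without Doxy at 3% O2 alone, kept the number at 1. Without replicate 3 with Doxy at 3% O2 alone, 4 genes were called (7.23% of all genes), POLD1 at 1.07, POLE at 0.73, ERCC2 at 0.71 and NTHL1. Without replicate 1 without Doxy at 3% O2, whose GC balance was 0.04, 2 were called, POLD1 at 1.02 and NTHL1, against 540 of 17208 genes. DESeq2's Wald test called 4, NTHL1, ERCC2, POLD1 and POLE, against 6.97% of all genes. Each of the other 8 libraries left out alone gave 1 call.

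Without Doxy, 4 of the 10 enzymes were higher at 3% than at 20% O2 and 0 lower, against 13.9% and 11.9% of all genes. NTHL1 rose from 10.5 to 11.6 CPM at 20% O2 to 15.6 to 19.1 CPM at 3% O2 (log2 fold change 0.69, SE 0.12, edgeR quasi-likelihood adjusted p = 0.00221). POLD1 rose from 39.96 to 41.9 CPM to 52.8 to 78.7 CPM (log2 fold change 0.70, SE 0.20, edgeR quasi-likelihood adjusted p = 0.0269). ERCC2 (0.46, SE 0.12) and POLE (0.43, SE 0.13) rose as well, with adjusted p values of 0.0194 and 0.035. In all 4 genes every library at 3% O2 lay above every library at 20% O2, a gap upward that 27.4% of all genes showed. RTEL1 had the same gap, at 4.02 to 4.88 and 4.99 to 6.05 CPM, and was not called (log2 fold change 0.39, edgeR quasi-likelihood adjusted p = 0.102). In contrast, DNA2 (0.01, 95% interval −0.18 to 0.19), POLA1 (0.10, −0.04 to 0.23) and BRIP1 (−0.11, −0.31 to 0.09) did not pass, nor did MUTYH (0.08) or PRIM2 (−0.11). PRIM2 had a gap downward, at 25.8 to 28.2 CPM at 20% O2 and 24.0 to 25.5 CPM at 3% O2, as did 3711 of 16891 genes. The summed endothelial markers were also higher at 3% O2 without Doxy, at 39.9 to 51.6 against 26.2 to 27.0 CPM, nearly all of it from CDH5, with PECAM1 near 0.

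The 4 genes that rose are among the 6 GC-rich members, and GC-rich genes were higher in all libraries without Doxy at 3% O2 than in any without Doxy at 20% O2. Of the 2783 GC-richest genes, 28.2% were called higher in this comparison, and of the 2783 GC-poorest 6.32%. With the GC correction POLD1 stood at 0.35, NTHL1 at 0.37, POLE at 0.29 and ERCC2 at 0.22, all still called, and POLA1 and DNA2, both at 0.22, were called in addition, while MUTYH became called lower at −0.17. Of all genes, 20.0% were higher and 11.0% lower with the correction. The share of lower calls over all genes moved from 46.1% to 35.4% with the correction. The labels do not state that replicate numbers link conditions. Same-numbered libraries of these 2 conditions deviated together (correlations of 0.19 to 0.50, against −0.47 to 0.23 for other pairs), so a pairing was inferred and tried. A replicate block fitted to all 12 libraries left 2 genes called, NTHL1 (0.69) and ERCC2 (0.46), against 9.76% of all genes, while POLD1 had an adjusted p of 0.0594 and POLE of 0.0724. A block fitted to the 6 libraries compared kept all 4, with adjusted p values from 0.00499 to 0.018, against 2781 of 16357 genes called higher. POLD1 and POLE lost their calls when any of the 3 libraries without Doxy at 20% O2 was left out (0.68 to 0.71 and 0.40 to 0.44), or replicate 2 (0.56 and 0.34) or replicate 3 (0.70 and 0.44) without Doxy at 3% O2. ERCC2 lost its call without replicate 2 or 3 at 20% O2 (0.44 and 0.42) or without replicate 2 at 3% O2 (0.38).

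With Doxy present, 0 of the 10 enzymes were called between 3% and 20% O2, against 0.385% of all genes called lower and 1.63% higher (edgeR's quasi-likelihood test). All 10 log2 fold changes were negative, from −0.24 (RTEL1) to −0.02 (MUTYH), with a median of −0.14, against −0.0045 for all genes. POLD1 was at −0.18, POLE at −0.15, NTHL1 at −0.13, ERCC2 at −0.12, and POLA1 and BRIP1 at −0.10. Without replicate 1 at 20% O2 the median was −0.06, with MUTYH at 0.11, POLD1 at 0.05 and NTHL1 at 0.0061. MUTYH was also above 0 without replicate 1 at 3% O2 (0.04). DNA2 (−0.21) and PRIM2 (−0.20) had an unadjusted p under 0.05, a count for which no share of all genes is given. DESeq2's Wald test called 0 of the 10, against 203 of 16251 genes lower and 397 higher. With the GC correction the share of lower calls over all genes moved from 19.1% to 35.6%. PRIM2 had 23.3, 26.8 and 29.7 CPM at 20% O2 and 22.7, 22.7 and 24.1 CPM at 3% O2, and the ranges overlapped. Without replicate 1 at 20% O2 it was called lower, at −0.30 (edgeR quasi-likelihood adjusted p = 0.0434).

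Cells without Doxy at 3% O2 were also set against cells with Doxy at 20% O2, which differ in both FDX2 and oxygen. Here 3 of the 10 enzymes were lower and 0 higher, against 8.05% and 10.3% of all genes. DNA2 had 45.6 to 50.6 CPM with Doxy at 20% O2 and 32.1 to 39.0 CPM without at 3% O2 (log2 fold change −0.42, SE 0.08, edgeR quasi-likelihood adjusted p = 0.00586). BRIP1 (−0.34, SE 0.09) and POLA1 (−0.29, SE 0.06) were lower too, with adjusted p values of 0.024 and 0.00921, and in all 3 genes the conditions did not overlap, a gap downward that 14.5% of all genes showed. NTHL1 (−0.09), POLD1 (−0.07) and ERCC2 (0.11) were not called, with 95% intervals from −0.35 to 0.16, from −0.51 to 0.37 and from −0.16 to 0.37. POLE (−0.27), RTEL1 (−0.13), PRIM2 (−0.09) and MUTYH (−0.08) did not pass either. With the GC correction 5 genes were lower, DNA2 (−0.32), POLA1 (−0.24), BRIP1 (−0.22), POLE (−0.34) and MUTYH (−0.16), against 11.4% of all genes. Fitted to the 6 libraries compared, only DNA2 was called, against 2.74% of all genes. BRIP1 also lost its call without replicate 2 or 3 with Doxy (−0.32 and −0.27) or without replicate 1 or 2 without Doxy (−0.33 and −0.30). Without replicate 1 with Doxy, PRIM2 was called in addition (−0.21). This comparison shares its libraries with the others, so the values are set side by side only.

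The order of the 4 conditions differed between genes. For NTHL1 the means were 19.1 ± 3.28 CPM (SD, n = 3) with Doxy at 20% O2, 17.9 ± 1.95 without Doxy at 3%, 17.4 ± 0.984 with Doxy at 3% and 11.1 ± 0.565 without Doxy at 20%, and only the last was separated from its neighbour by more than the replicates' spread. POLE followed 145.7 ± 22.7, 130.9 ± 21.4 and 120.4 ± 13.7 CPM with Doxy at 20%, with Doxy at 3% and without Doxy at 3%, with 89.3 ± 2.58 CPM without Doxy at 20%. POLD1 had 69.7 ± 19.1, 66.2 ± 12.98 and 61.6 ± 12.8 CPM with Doxy at 20%, without Doxy at 3% and with Doxy at 3%, and 40.6 ± 1.12 CPM without Doxy at 20%. In both genes the first 3 conditions overlapped. For DNA2 the order was 48.7 ± 2.72, 42.3 ± 3.50, 36.3 ± 3.65 and 36.1 ± 1.10 CPM with Doxy at 20%, with Doxy at 3%, without Doxy at 3% and without Doxy at 20%. The pair without Doxy was separated from the pair with Doxy, except for replicate 3 with Doxy at 3%, which overlapped the libraries without Doxy at 3%, and the conditions with Doxy did not overlap each other, a gap downward at 3% O2 that 6.61% of all genes showed. POLA1 had 52.8 ± 3.37, 49.3 ± 0.398, 43.2 ± 2.81 and 40.4 ± 1.11 CPM in the same order, and the pair with Doxy lay wholly above the pair without. BRIP1 had 62.7 ± 7.41, 58.5 ± 3.82, 53.4 ± 2.43 and 49.5 ± 3.58 CPM with Doxy at 20%, with Doxy at 3%, without Doxy at 20% and without Doxy at 3%, and each condition overlapped its neighbour. ERCC2 was highest without Doxy at 3% (76.9 ± 7.95 CPM), followed by 71.4 ± 10.6 with Doxy at 20%, 65.5 ± 9.22 with Doxy at 3% and 56.0 ± 2.55 without Doxy at 20%, with only the last apart from its neighbour. RTEL1 had 6.20 ± 1.43, 5.69 ± 0.606, 5.27 ± 0.337 and 4.35 ± 0.458 CPM in the order with Doxy at 20%, without Doxy at 3%, with Doxy at 3% and without Doxy at 20%, again with only the last apart. These gaps were narrow, at 58.8 against 59.9 CPM for ERCC2 and 4.88 against 4.92 CPM (150 against 152 counts) for RTEL1. No share of all genes is given for gaps between 3% O2 with Doxy and 20% O2 without. The same holds for the separation of the pairs in POLA1 and DNA2. The 4 means of PRIM2 (23.2 to 27.0 CPM) and of MUTYH (33.8 to 37.6 CPM) formed an order in which all neighbours overlapped.

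Levels of different genes were compared per kilobase of exonic sequence, with all exons of a gene counted. With Doxy at 20% O2, POLD1 had the highest mean level of the 10, 14.1 ± 3.88 CPM per kb (SD, n = 3), followed by ERCC2 (11.1 ± 1.65), DNA2 (10.01 ± 0.559) and MUTYH (9.61 ± 1.47). POLE (8.77 ± 1.37), POLA1 (8.33 ± 0.532), NTHL1 (7.86 ± 1.35), BRIP1 (7.85 ± 0.928) and PRIM2 (5.70 ± 0.682) followed, and RTEL1 was far below them at 0.963 ± 0.222 CPM per kb. All neighbours in this order except BRIP1 to PRIM2 and PRIM2 to RTEL1 differed by less than the sum of their SDs.

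The genes whose profile over the 12 libraries was most like that of each enzyme were searched among 10755 genes with a symbol and a mean of at least 5 CPM, by the root mean square difference of centred log2 CPM. POLE was nearest to LETM1 (0.0367), POLD1 to ANKRD9 (0.0557), POLA1 to UBA2 (0.0357), PRIM2 to BLOC1S2 (0.0640) and NTHL1 to SLC37A4 (0.0734). MUTYH was nearest to CC2D1B (0.0416), ERCC2 to LSM4 (0.0463), RTEL1 to TMEM160 (0.0954), BRIP1 to RIF1 (0.0342) and DNA2 to PDSS1 (0.0459). Between members, POLA1 and DNA2 were the closest pair (0.0850), and the nearest member to POLD1 was POLE (0.138). All genes of a library share its depth and its GC balance, which differed between libraries. This likeness is therefore a description of these 12 libraries.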

How the data were processed

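RNA-seq was performed in 12 libraries of FDX2-iKO ES2 cells. Random-primed cDNA of poly(A) RNA was read on a DNBSEQ-T7 instrument. Per the labels, the authors used STAR for alignment to GRCh38 and featureCounts for assignment to genes. The deposited values are these counts, unnormalized, for each library separately. Versions, annotation and strand setting are not given in the sources used here. All 58735 identifiers match GENCODE release 29, which served for symbols, exon overlaps, lengths and GC content. For replicates 1 and 2 with Doxy at 20% O2 the submitters recorded that 1 of the paired read files was lost in transfer. Replicates are described as biological.

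The analysis used edgeR 4.0.16 in R 4.3.3, with TMM scaling, filterByExpr (minimum count 10, minimum total 15) and a quasi-likelihood model of the 4 conditions with 8 residual degrees of freedom. This left 16891 of 32966 genes with a count, and a gene was called at a Benjamini-Hochberg adjusted p under 0.05 over all of them. The common biological coefficient of variation was 16.3%. RTEL1 had 124 to 238 counts per library, the fewest of the members. Standard errors and 95% intervals came from the same model, and the steps were tested on simulated data. The 10 members, the gene lists and the tests were chosen with earlier results of these data known. The rule for named genes took all 10 members in each comparison, and of the other lists up to 3 called genes with the largest change. Alternatives were DESeq2 1.42.0 (size factors or Wald test), a replicate block, no filter, at least 10 counts in every library, only the compared libraries, a GC content correction (lowess of log2 CPM on transcript GC, span 0.3, for genes above a log2 CPM of 2), leaving out each library, and an adjusted p under 0.01. Leaving out together the 3 libraries in which GC-rich genes were highest, and the GC-corrected block for the 6 compared libraries without Doxy, were chosen after seeing the data. Same-numbered libraries without Doxy at 20% and 3% O2 deviated together (correlations across genes of 0.19 to 0.50, against −0.47 to 0.23 for the other pairs, ranges that overlap). A pairing of these 2 conditions was inferred from this alone, since the labels state none. Between all other conditions, some same-numbered libraries correlated negatively. Promoter windows were taken from RefSeq (GRCh38.p14).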

Additional observations from a re-analysis of the deposited data

Results flagged for a closer look

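NTHL1 was picked out because a direct test of the difference found unlike changes on Doxy withdrawal at 20% and 3% O2. The log2 fold change without against with Doxy was −0.78 at 20% O2 and 0.04 at 3% O2, a difference of 0.82 (SE 0.17, edgeR quasi-likelihood adjusted p = 0.0152). The difference was 0.48 (SE 0.11, adjusted p = 0.015) with the GC correction and 0.66 without the 3 libraries in which GC-rich genes were highest. It did not pass an adjusted p under 0.01. In the same test, 13 of 41 S-phase and 36 of 54 G2/M genes were called higher. POLD1 (0.88), RTEL1 (0.62), POLE (0.58) and ERCC2 (0.58) had differences of similar size that were not called. With the GC correction 6 of the 10 members were called higher, against 10.5% of all genes. Exons of TSC2 on the opposite strand cover 16.5% of the exonic bases of NTHL1, and their part in the difference was not tested.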

How the results depend on the processing

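NTHL1, POLE, POLD1, POLA1 and DNA2 kept their call at 20% O2 at an adjusted p under 0.05 in every edgeR and DESeq2 setting tried. After FDX2 loss at 20% O2, an adjusted p under 0.01 left 4 members lower. The share of all genes called at that threshold is not given, here or for the comparisons below. At 3% O2 the GC correction, alone or with the replicate block, gave 1 lower and 1 higher, DESeq2's Wald test 1 lower, and leaving out the 3 libraries with high GC-rich genes 2 lower and 1 higher. Over all 16891 genes the correction called 1030 lower and 1427 higher, and 759 and 1126 with the block. The Wald test called 1139 of 14366 genes lower. Without the 3 libraries 1326 of 17173 genes were lower and 1284 higher. With Doxy, low oxygen gave 0 to 1 lower when single libraries were left out and 1 lower without the 3 libraries. Over all genes 17 to 102 and 161 of 17173 were then lower, against 65 of 16891 in the main setting. Without Doxy, low oxygen gave 1 higher at an adjusted p under 0.01, 2 with a replicate block on all 12 libraries and 1 to 4 when single libraries were left out. Over all genes that block called 1648 of 16891 higher, and leaving out single libraries 1176 to 2364. The GC correction, alone or with either replicate block, gave 1 lower for low oxygen without Doxy. Over all genes it called 1855 of 16891 lower, 1647 with the block on 12 libraries and 1706 of 16357 with the other block. For the difference of the responses, the number of members called higher was 0 at an adjusted p under 0.01. With at least 10 counts in every library it was 2, against 528 of 14312 genes. It was 4 with DESeq2's Wald test, 6 with the GC correction, alone or with the replicate block, and 6 without the 3 libraries. With single libraries left out it was 1 to 4. Over all genes the Wald test called 957 of 13738 higher, and the GC correction 1780 of 16891, or 1342 with the block. Without the 3 libraries 1554 of 17173 genes were higher, and with single libraries left out 204 to 1251. For 3% O2 without Doxy against 20% O2 with Doxy, the number lower was 5 with the GC correction, alone or with the replicate block, 5 without the 3 libraries, 1 with only the compared libraries and 0 with a replicate block on them. Over all genes the correction called 1924 of 16891 lower, and 1605 with the block. Without the 3 libraries 2537 of 17173 were lower, with only the compared libraries 438 of 15984, and 0 with a block on them. The cause was not tested.

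No value that changed sign had been called, and after the change only MUTYH passed the threshold, for low oxygen without Doxy. There MUTYH went to −0.17 with the GC correction and with the GC-corrected replicate block on all 12 libraries, and to −0.18 with that block on the 6 libraries. BRIP1 went to 0.11, 0.10 and 0.091 and PRIM2 to 0.032, 0.029 and 0.019 in these 3 settings. DNA2 went to −0.017 with at least 10 counts, −0.0095 with DESeq2's size factors, −0.011 with its Wald test, −0.0044 with no filter, −0.0045 with only the compared libraries and −0.0089 with a replicate block on them. For FDX2 loss at 20% O2, MUTYH went to 0.0056 with the GC correction and 0.0055 with the block added, and PRIM2 to −0.046, −0.043 with the block added, −0.020 with no filter and −0.079 without the 3 libraries. At 3% O2, NTHL1 went to −0.076 and POLD1 to −0.016 with the GC correction, and to −0.077 and −0.016 with the block added. For the difference of the responses, BRIP1 went to 0.14 with the GC correction, with or without the block, and to 0.063 without the 3 libraries, and MUTYH to −0.14 and −0.035. Without the 3 libraries, MUTYH stood at 0.042 for low oxygen with Doxy and POLD1 at 0.0081 for 3% O2 without Doxy against 20% O2 with Doxy.

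Leaving out single libraries changed signs within these ranges. BRIP1 lay from −0.079 to 0.079 and MUTYH from −0.042 to 0.17 for the difference of the responses, DNA2 from −0.044 to 0.089 for low oxygen without Doxy, and PRIM2 from −0.080 to 0.10 for FDX2 loss at 20% O2. For FDX2 loss at 3% O2, MUTYH lay from −0.12 to 0.011, NTHL1 from −0.013 to 0.12, POLD1 from −0.039 to 0.29 and POLE from −0.21 to 0.021. For low oxygen with Doxy, MUTYH lay from −0.090 to 0.11, NTHL1 from −0.22 to 0.0061 and POLD1 from −0.36 to 0.053. For 3% O2 without Doxy against 20% O2 with Doxy, MUTYH lay from −0.15 to 0.030, NTHL1 from −0.18 to 0.029, POLD1 from −0.23 to 0.14 and RTEL1 from −0.29 to 0.020. Across all genes, the difference of the responses had 689 lower and 542 higher calls, 938 and 1780 with the GC correction, 920 and 957 with DESeq2's Wald test, 367 and 305 with no filter, 383 and 232 with the replicate block, 744 and 1342 with the GC-corrected block, and 1014 and 1554 without the 3 libraries. FDX2 loss at 3% O2 had 526 and 709, against 1030 and 1427 with the GC correction, 759 and 1126 with its block, 1139 and 804 with the Wald test, 330 and 348 with no filter, 247 and 429 with the block, 1326 and 1284 without the 3 libraries, 73 and 145 with only the compared libraries, and 0 and 1 with a block on them. Low oxygen with Doxy had 65 and 276, against 309 and 559, 153 and 414, 203 and 397, 26 and 204, 19 and 199, 161 and 359, 9 and 119, and 0 and 12 in the same settings. For 3% O2 without Doxy against 20% O2 with Doxy there were 1359 and 1732, against 2059 and 1583 with the Wald test, 1372 and 1126 with no filter, 2537 and 2414 without the 3 libraries, 438 and 864 with only the compared libraries, and 0 and 13 with a block on them. Leaving out single libraries gave 316 to 940 lower and 204 to 1251 higher for the difference, 217 to 714 and 344 to 891 for FDX2 loss at 3% O2, 17 to 102 and 173 to 286 for low oxygen with Doxy, 1145 to 1836 and 1176 to 2364 for low oxygen without Doxy, and 648 to 2018 and 1069 to 1874 for the last comparison. In the comparisons other than low oxygen without Doxy, the replicate block on all 12 libraries changed 1 call, that of ERCC2 at 20% O2.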
